A study of Mus musculus with 12 samples.

Results

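The genes described here are 32 genes that handle glucose in brown fat, of 24452 genes in the deposited expression table. They form a fixed list of names grouped by known function: 4 carry glucose or lactate across the cell membrane, 9 run glycolysis as far as triose phosphate, 6 run it on to lactate, 4 set the level of fructose 2,6-bisphosphate and 9 make or break glycogen. All 32 were found in the table.

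Brown adipose tissue burns fuel to make heat. It takes up glucose through GLUT4 and GLUT1, traps it as glucose 6-phosphate, and can send it down glycolysis to pyruvate and lactate, store it as glycogen, or use it to make the glycerol backbone of triglyceride. Sympathetic nerves switch on glucose uptake and thermogenesis in this tissue through β-adrenergic receptors. ERRα and ERRγ are nuclear receptors best known for driving genes of oxidative metabolism.

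The study asked how brown fat of mice without these receptors in fat cells responds to a drug that stimulates the β3-adrenergic receptor. ERRKO mice carried floxed alleles of both receptors and a Cre transgene driven by the adiponectin promoter, which acts in adipocytes of white as well as brown fat, so that other cells of the tissue keep the receptors. WT mice were littermates with the same floxed alleles and no Cre. All were males of the strain C57BL/6J Bom, 12 weeks of age, housed at 30 °C, which is warm for a mouse and removes most of its need to make heat. Each genotype received CL316,243, the β3-adrenergic agonist, at 1 mg/kg by daily intraperitoneal injection for 10 days, or PBS, and brown fat was collected 24 h following the final injection. That gave the groups ERRKO_CL, ERRKO_PBS, WT_CL and WT_PBS with 3 libraries each. The labels do not say that libraries of a group came from separate animals, so the p-values refer only to variation among the libraries, which may be technical.

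Reads recovered per library numbered 12468001 to 12954186 in ERRKO_CL, 12822176 to 13263567 in ERRKO_PBS, 8979123 to 9559239 in WT_CL and 8478310 to 9727167 in WT_PBS. Esrra, which encodes ERRα, stood at 6.69 to 8.70 scaled RPKM in ERRKO_CL, 5.25 to 8.89 in ERRKO_PBS, 75.4 to 83.1 in WT_CL and 41.6 to 46.9 in WT_PBS. Esrrg, which encodes ERRγ, ranged over 6.36 to 8.11 in ERRKO_CL, 2.29 to 4.71 in ERRKO_PBS, 5.61 to 8.12 in WT_CL and 4.40 to 8.26 in WT_PBS, so its ranges overlapped. Such levels cover the whole gene and all cells of the tissue, so they cannot show whether the floxed part was deleted in adipocytes. All 8 adipocyte markers were present, 6 of them called higher in ERRKO_CL than in WT_CL and 5 higher in ERRKO_PBS than in WT_PBS. Of all tested genes 19.8% and 15.8% were called higher in these comparisons. The summed level of the 8 was 19122 to 19500 in ERRKO_CL and 15983.5 to 16989 in WT_CL. Under PBS it overlapped, at 11464 to 15422 in ERRKO_PBS and 10185 to 15167 in WT_PBS. Of 10 brown adipocyte markers none was at 0, and their summed level was 1225 to 1564 in ERRKO_CL, 407 to 693 in ERRKO_PBS, 7193 to 9224 in WT_CL and 2929 to 4932 in WT_PBS. Of the 10, 7 were called lower in ERRKO_CL than in WT_CL and 6 lower in ERRKO_PBS than in WT_PBS, and Ppargc1a, Prdm16 and Zic1 passed in neither comparison. The shares of all tested genes called lower were 21.6% and 18.4%. In a bulk sample, fewer cells of a type and less RNA per cell cannot be told apart, and the part of these marker differences in the results that follow was not tested.

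Levels are RPKM, reads corrected for gene length and for the reads in the library, brought to a common scale between libraries by median-of-ratios scaling, and changes are log2 of that level plus 0.5, given ± SE. As deposited, the typical gene of 12249 tested was 0.63 (log2) higher in ERRKO_CL than in WT_CL and 0.53 higher in ERRKO_PBS than in WT_PBS, while CL316,243 shifted it by -0.16 in ERRKO and -0.26 in WT. Scaling sets the typical gene to no change, so a fall here means a fall relative to other transcripts. A gene was called where limma gave a Benjamini-Hochberg adjusted p below 0.05 over all genes tested. Of the 32 genes 30 were tested, and Slc16a3 and Aldoc had a mean RPKM below the minimum of 0.5.

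Most of the glucose genes were lower in ERRKO brown fat. Under CL316,243, 23 of the 30 were lower and 3 higher in ERRKO_CL than in WT_CL, where 21.6% of all tested genes were called lower and 19.8% higher. Under PBS, 18 were lower and 4 higher in ERRKO_PBS than in WT_PBS, where 18.4% of all tested genes were called lower and 15.8% higher. The median change over the 30 genes was -1.37 under CL316,243 and -0.88 under PBS, against 0.01 for all tested genes in both. Without further scaling of the deposited RPKM, 16 were lower and 7 higher under CL316,243, against 6.62% and 70.5% of all genes, and 12 were lower and 9 higher under PBS, against 6.22% and 66.3%. In 18 of the 30 tested genes every ERRKO library was below every WT library whatever the treatment, against 12% of all tested genes, and in 2, Pfkfb4 and Pygb, every ERRKO library was above every WT library, against 9.47%. Under each treatment the 3 largest falls lay between triose phosphate and lactate, and the rises that both treatments shared were in Pfkfb3 and Pfkfb4, which set fructose 2,6-bisphosphate, and in Pygb, the brain-type glycogen phosphorylase.

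**Figure D1:**
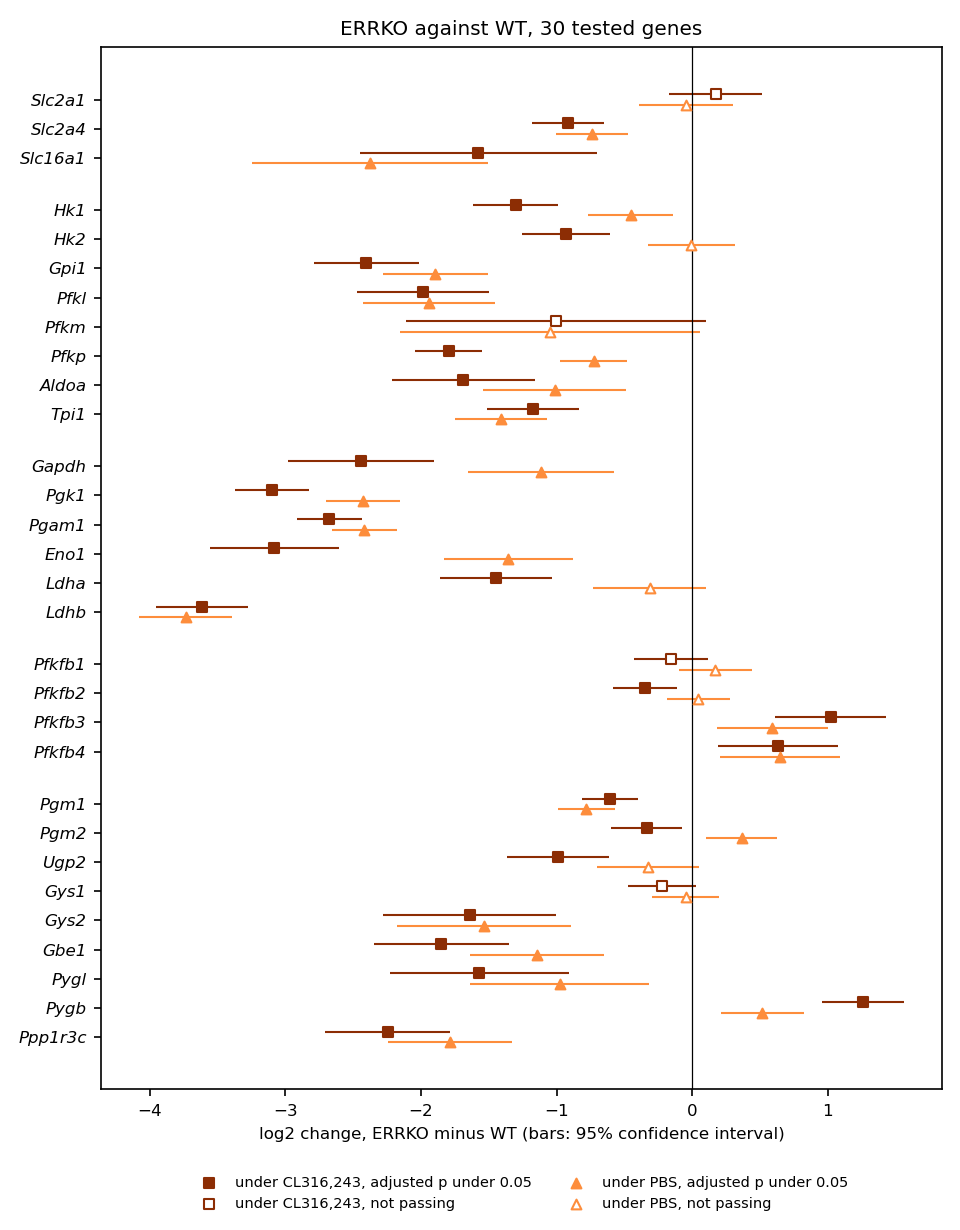
Log2 change of each of the 30 tested genes, ERRKO minus WT, under CL316,243 (squares) and PBS (triangles), with bars for the 95% confidence interval and filled symbols where the adjusted p is below 0.05. Gene groups run from transport at the top to glycogen at the bottom; Ldhb lies farthest left under both treatments, at -3.62 and -3.74, and Pygb farthest right under CL316,243, at 1.26.

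Ldhb encodes the heart-type subunit of lactate dehydrogenase, which favours turning lactate into pyruvate, and it had the largest fall of the 30 genes under both treatments. Ldhb stood at 37.0, 33.4 and 48.9 scaled RPKM in ERRKO_CL libraries, against 508, 458 and 496 in WT_CL libraries, and at 26.1, 29.1 and 36.2 in ERRKO_PBS libraries, against 379, 378 and 473 in WT_PBS libraries. Ldhb changed by -3.62 ± 0.16 (adjusted p = 1.02e-08) under CL316,243 and by -3.74 ± 0.16 (adjusted p = 1.06e-08) under PBS. The highest ERRKO library stood at 48.9 and the lowest WT library at 378. Ldha encodes the muscle-type subunit, which favours making lactate. Ldha stood at 207, 198 and 271 scaled RPKM in ERRKO_CL libraries, against 523, 704 and 614 in WT_CL libraries, and at 239, 251 and 211 in ERRKO_PBS libraries, against 273, 232 and 386 in WT_PBS libraries. Ldha changed by -1.45 ± 0.19 (adjusted p = 7.30e-05) under CL316,243 and by -0.31 ± 0.19 (adjusted p = 0.224) under PBS. The WT_CL libraries stood above all others, while ERRKO_PBS and WT_PBS libraries overlapped.

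The make-up of lactate dehydrogenase transcripts shifted accordingly, and this share does not depend on how libraries are scaled. Ldhb made up 15.2, 14.4 and 15.3% of the summed RPKM of Ldha and Ldhb in ERRKO_CL libraries, against 49.3, 39.4 and 44.7% in WT_CL libraries. Under PBS it made up 9.82, 10.4 and 14.6% in ERRKO_PBS libraries, against 58.2, 62.0 and 55.1% in WT_PBS libraries. The ERRKO and WT libraries did not overlap.

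Between triose phosphate and pyruvate, Pgk1, Pgam1, Eno1 and Gapdh were all called lower in ERRKO under both treatments. Pgk1 encodes phosphoglycerate kinase, the first step of glycolysis that yields ATP. Pgk1 stood at 43.8, 49.2 and 56.3 scaled RPKM in ERRKO_CL libraries, against 410.2, 463 and 412 in WT_CL libraries, and at 42.6, 46.9 and 50.3 in ERRKO_PBS libraries, against 241, 225 and 296 in WT_PBS libraries. Pgk1 changed by -3.10 ± 0.13 (adjusted p = 6.63e-09) under CL316,243 and by -2.43 ± 0.13 (adjusted p = 5.49e-08) under PBS. Levels in the 6 ERRKO libraries stayed within 42.6 to 56.3, while those of the WT libraries differed between treatments. Pgam1 encodes the phosphoglycerate mutase of most tissues. Pgam1 stood at 73.6, 67.7 and 73.8 scaled RPKM in ERRKO_CL libraries, against 449.7, 491 and 444 in WT_CL libraries, and at 49.6, 61.1 and 51.9 in ERRKO_PBS libraries, against 285, 264 and 329 in WT_PBS libraries. Pgam1 changed by -2.68 ± 0.11 (adjusted p = 6.73e-09) under CL316,243 and by -2.42 ± 0.11 (adjusted p = 2.10e-08) under PBS. Its WT_CL libraries stood above its WT_PBS libraries, and both above every ERRKO library.

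Eno1 encodes enolase 1, which makes phosphoenolpyruvate. Eno1 stood at 19.4, 18.7 and 23.3 scaled RPKM in ERRKO_CL libraries, against 173, 193 and 165 in WT_CL libraries, and at 47.0, 38.4 and 33.6 in ERRKO_PBS libraries, against 112, 67.0 and 139 in WT_PBS libraries. Eno1 changed by -3.08 ± 0.22 (adjusted p = 4.15e-07) under CL316,243 and by -1.36 ± 0.22 (adjusted p = 4.69e-04) under PBS. Unlike most of the genes it was lower in ERRKO_CL than in ERRKO_PBS libraries, without overlap. Eno1 has a near-identical copy, Eno1b, to which reads may be assigned, and Eno1 held 19.3 to 36.0% of their summed level in ERRKO libraries and 19.8 to 30.9% in WT libraries, so its own values are uncertain. The sum of both was 93.8 ± 23.5 in ERRKO_CL, 119 ± 22.1 in ERRKO_PBS, 697 ± 138 in WT_CL and 409 ± 70.0 in WT_PBS (mean ± SD, n = 3). When the levels of both were summed before the fit, an alternative added after seeing the data, the change was -2.90 (adjusted p = 5.31e-07) under CL316,243 and -1.78 (adjusted p = 4.52e-05) under PBS.

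Gapdh encodes glyceraldehyde 3-phosphate dehydrogenase, a gene often used as a constant control. Gapdh stood at 55.2, 58.1 and 100.05 scaled RPKM in ERRKO_CL libraries, against 287, 477 and 385 in WT_CL libraries, and at 77.9, 84.1 and 103 in ERRKO_PBS libraries, against 183, 158 and 241 in WT_PBS libraries. Gapdh changed by -2.44 ± 0.25 (adjusted p = 8.28e-06) under CL316,243 and by -1.12 ± 0.25 (adjusted p = 0.00406) under PBS. The lowest WT library lay above the highest ERRKO library, so Gapdh was not constant here. Its change under PBS was not called on the deposited scale, at -0.53. Processed copies of Gapdh, Pgk1, Tpi1, Ldha and Pgam1 exist elsewhere in the genome and could have taken or lent reads.

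**Figure D2:**
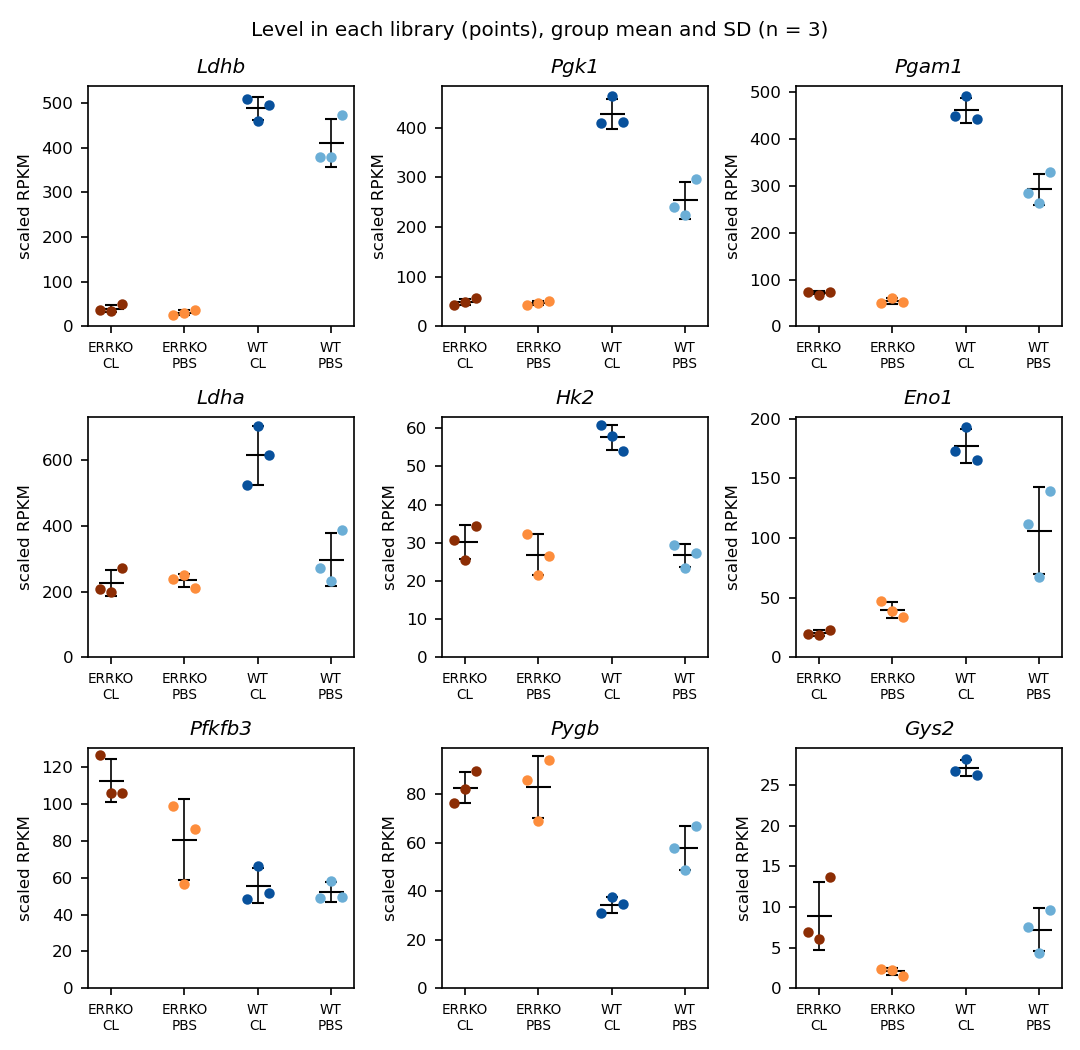
Scaled RPKM of 9 of the genes in each of 12 libraries (points), with group mean and SD (n = 3, black), for ERRKO_CL, ERRKO_PBS, WT_CL and WT_PBS from left to right. Ldhb, Pgk1 and Pgam1 are low in all 6 ERRKO libraries, Ldha and Hk2 stand high in WT_CL alone, and Pfkfb3 and Pygb are higher in ERRKO_CL than in WT_CL.

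In the steps up to triose phosphate 7 of 8 tested genes were lower in ERRKO_CL than in WT_CL and 6 of 8 lower in ERRKO_PBS than in WT_PBS. Gpi1 encodes glucose 6-phosphate isomerase. Gpi1 stood at 33.2, 38.4 and 42.3 scaled RPKM in ERRKO_CL libraries, against 149.8, 275 and 200.4 in WT_CL libraries, and at 39.9, 38.4 and 43.7 in ERRKO_PBS libraries, against 145, 146 and 167 in WT_PBS libraries. Gpi1 changed by -2.40 ± 0.18 (adjusted p = 5.92e-07) under CL316,243 and by -1.89 ± 0.18 (adjusted p = 6.39e-06) under PBS. ERRKO libraries lay close together under both treatments, and every WT library stood far above them. Tpi1 encodes triose phosphate isomerase. Tpi1 stood at 109.8, 116 and 150.01 scaled RPKM in ERRKO_CL libraries, against 279, 294 and 270.2 in WT_CL libraries, and at 82.7, 81.7 and 115 in ERRKO_PBS libraries, against 243, 216 and 279 in WT_PBS libraries. Tpi1 changed by -1.18 ± 0.16 (adjusted p = 8.09e-05) under CL316,243 and by -1.41 ± 0.16 (adjusted p = 2.61e-05) under PBS. The groups of the 2 genotypes did not overlap.

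Phosphofructokinase, which commits glucose to glycolysis, has liver, muscle and platelet forms, encoded by Pfkl, Pfkm and Pfkp. Pfkl had the highest level of the 3 in every WT library. Pfkl stood at 21.3, 23.9 and 22.1 scaled RPKM in ERRKO_CL libraries, against 66.8, 132 and 83.2 in WT_CL libraries, and at 19.0, 30.2 and 22.1 in ERRKO_PBS libraries, against 91.7, 78.2 and 105 in WT_PBS libraries. Pfkl changed by -1.99 ± 0.22 (adjusted p = 2.11e-05) under CL316,243 and by -1.94 ± 0.22 (adjusted p = 3.63e-05) under PBS. Its fall was of like size under both treatments, and the genotypes did not overlap. Pfkp stood at 5.04, 5.09 and 5.28 scaled RPKM in ERRKO_CL libraries, against 18.1, 21.6 and 17.7 in WT_CL libraries, and at 7.16, 7.84 and 6.35 in ERRKO_PBS libraries, against 12.9, 10.4 and 13.1 in WT_PBS libraries. Pfkp changed by -1.80 ± 0.11 (adjusted p = 1.67e-07) under CL316,243 and by -0.73 ± 0.11 (adjusted p = 3.93e-04) under PBS. Pfkp was below every WT library in every ERRKO library, and on the deposited scale its change under PBS, -0.17, was not called.

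Pfkm had the largest SE of the 30 genes. Pfkm stood at 11.9, 18.5 and 24.8 scaled RPKM in ERRKO_CL libraries, against 31.7, 37.2 and 39.3 in WT_CL libraries, and at 9.65, 6.27 and 41.8 in ERRKO_PBS libraries, against 33.8, 27.0 and 26.7 in WT_PBS libraries. Pfkm changed by -1.01 ± 0.51 (adjusted p = 0.134) under CL316,243 and by -1.05 ± 0.51 (adjusted p = 0.131) under PBS. ERRKO_PBS replicate 3 stood above every WT_PBS library, and the other ERRKO_PBS libraries below them. That library also held the most skeletal muscle RNA: the summed level of 18 muscle markers, none of them at 0 in every library, was 228, 839.7 and 1868 in ERRKO_CL, 451, 116 and 3499.8 in ERRKO_PBS, 86.4, 2.79 and 418 in WT_CL and 329, 3.65 and 10.2 in WT_PBS libraries. Muscle forms of other glycolytic and glycogen genes stood highest in the same library, with the glycogen phosphorylase Pygm at 55.6, Eno3 at 104 and Pgam2 at 51.3. Without ERRKO_PBS replicate 3, which also lowers the spread shared by all groups in the fit, Pfkm was called lower in ERRKO_PBS than in WT_PBS at -1.83 (adjusted p = 3.06e-04), and lower in ERRKO_CL than in WT_CL at -1.003 (adjusted p = 0.00497). Without the third library of both ERRKO groups the changes were -1.83 (adjusted p = 1.40e-04) under PBS and -1.24 (adjusted p = 0.00131) under CL316,243. Without ERRKO_PBS replicate 1 or ERRKO_PBS replicate 2 Pfkm was not called under PBS, at -0.80 (adjusted p = 0.321) and -0.51 (adjusted p = 0.439). Without ERRKO_CL replicate 3 alone it was not called under CL316,243, at -1.24 (adjusted p = 0.115). The part of muscle RNA in these changes was not tested.

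Aldoa encodes aldolase A, the fructose 1,6-bisphosphate aldolase of muscle and most other tissues, and had the highest mean level of the 32 genes in each group. Aldoa stood at 262, 304 and 402 scaled RPKM in ERRKO_CL libraries, against 797, 1344 and 1004 in WT_CL libraries, and at 265, 242 and 409 in ERRKO_PBS libraries, against 629, 516 and 669 in WT_PBS libraries. Aldoa changed by -1.69 ± 0.24 (adjusted p = 1.40e-04) under CL316,243 and by -1.02 ± 0.24 (adjusted p = 0.00636) under PBS. Replicate 3 of both ERRKO groups, which carried the most muscle marker RNA, stood highest in its group yet below every WT library. The change under PBS on the deposited scale was -0.42 and not called, and the part of muscle RNA in it was not tested.

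**Figure D3:**
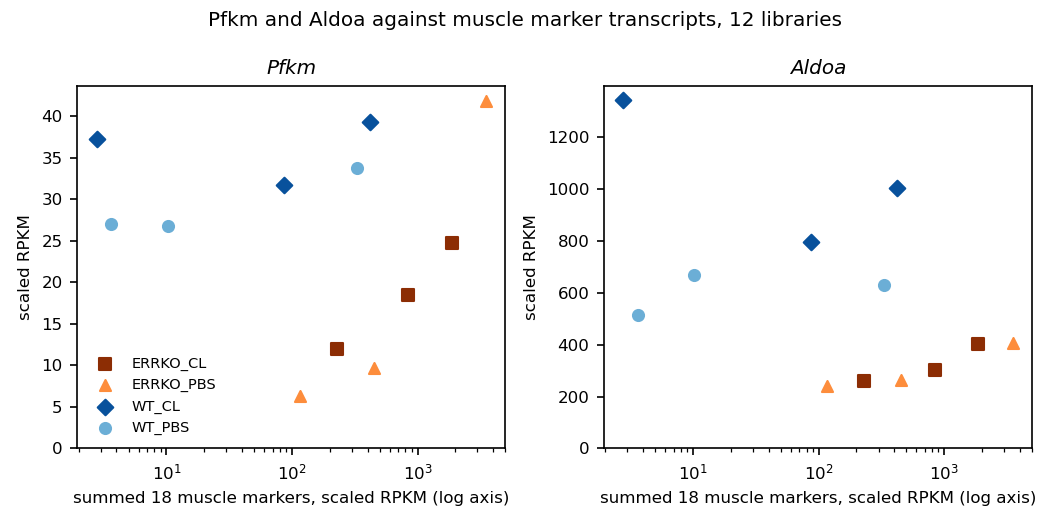
Scaled RPKM of Pfkm (left) and Aldoa (right) in the 12 libraries against the summed scaled RPKM of 18 skeletal muscle markers (log axis), with a symbol for each group. Pfkm in ERRKO libraries is highest where the muscle sum is highest, reaching 41.8 at a sum of 3499.8, while Aldoa in every ERRKO library lies below every WT library.

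Hexokinases trap glucose in the cell as glucose 6-phosphate, and Hk2 is the insulin-responsive form of fat and muscle. Hk2 stood at 30.7, 25.4 and 34.3 scaled RPKM in ERRKO_CL libraries, against 60.8, 58.0 and 54.0 in WT_CL libraries, and at 32.4, 21.6 and 26.6 in ERRKO_PBS libraries, against 29.5, 23.5 and 27.3 in WT_PBS libraries. Hk2 changed by -0.93 ± 0.15 (adjusted p = 3.20e-04) under CL316,243 and by -0.01 ± 0.15 (adjusted p = 0.977) under PBS. ERRKO_CL, ERRKO_PBS and WT_PBS libraries shared a range, and WT_CL libraries stood apart above them. As deposited, its change under PBS was 0.58 and called higher, and that under CL316,243, -0.22, was not called. Hk1, the form of most tissues, stood lower. Hk1 stood at 4.65, 4.01 and 5.29 scaled RPKM in ERRKO_CL libraries, against 12.1, 11.1 and 13.4 in WT_CL libraries, and at 5.43, 4.40 and 5.34 in ERRKO_PBS libraries, against 8.27, 7.62 and 5.63 in WT_PBS libraries. Hk1 changed by -1.30 ± 0.15 (adjusted p = 1.93e-05) under CL316,243 and by -0.45 ± 0.15 (adjusted p = 0.0295) under PBS. Under PBS the call was lost without ERRKO_PBS replicate 2, WT_PBS replicate 1 or WT_PBS replicate 2, with an adjusted p of up to 0.108, and on the deposited scale the change was 0.09, in the other direction.

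Among transporters, Slc2a4, which encodes the insulin-responsive GLUT4, was lower in ERRKO. Slc2a4 stood at 66.5, 49.9 and 56.4 scaled RPKM in ERRKO_CL libraries, against 96.4, 118 and 113 in WT_CL libraries, and at 72.4, 61.6 and 69.0 in ERRKO_PBS libraries, against 113, 104 and 123 in WT_PBS libraries. Slc2a4 changed by -0.92 ± 0.12 (adjusted p = 7.88e-05) under CL316,243 and by -0.74 ± 0.12 (adjusted p = 5.81e-04) under PBS. Its groups did not overlap between genotypes, but on the deposited scale the changes, -0.21 and -0.15, were not called. Slc2a1, which encodes GLUT1, ranged over 2.45 to 3.45 in ERRKO_CL, 2.02 to 3.40 in ERRKO_PBS, 2.29 to 2.69 in WT_CL and 2.61 to 2.79 in WT_PBS and passed in no comparison. On the deposited scale it was called higher in ERRKO under both treatments, at 0.76 and 0.46. As a share of the 2 transporters, which scaling leaves the same, Slc2a1 made up 4.17 to 4.97% in ERRKO_CL, 3.17 to 4.49% in ERRKO_PBS, 1.92 to 2.37% in WT_CL and 2.22 to 2.46% in WT_PBS libraries.

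Slc16a1 encodes MCT1, which carries lactate, pyruvate and ketone bodies. Slc16a1 stood at 27.7, 33.1 and 15.8 scaled RPKM in ERRKO_CL libraries, against 95.2, 64.2 and 66.0 in WT_CL libraries, and at 6.35, 24.3 and 10.5 in ERRKO_PBS libraries, against 70.7, 48.0 and 75.1 in WT_PBS libraries. Slc16a1 changed by -1.58 ± 0.40 (adjusted p = 0.00749) under CL316,243 and by -2.38 ± 0.40 (adjusted p = 6.69e-04) under PBS. Every ERRKO library lay below every WT library, with a wide spread among ERRKO_PBS libraries. Its change under CL316,243 was not called as deposited, at -0.87. Slc16a3, which encodes the lactate exporter MCT4, rested on 9, 13 and 23 reads in ERRKO_CL, 31, 14 and 50 in ERRKO_PBS, 4, 5 and 13 in WT_CL and 17, 12 and 18 in WT_PBS libraries. Aldoc, the brain form of aldolase, had 2, 0 and 1 reads in ERRKO_CL, 5, 5 and 0 in ERRKO_PBS, 12, 17 and 14 in WT_CL and 52, 64 and 24 in WT_PBS libraries. It may have entered the deposited table of recovered reads only through WT libraries, where most of its reads lay. Its difference between genotypes there would then have had to appear. At these counts its level beside Aldoa was below 1% in every library.

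Among the 4 enzymes that make and break fructose 2,6-bisphosphate, an activator of phosphofructokinase, Pfkfb3 and Pfkfb4 were higher in ERRKO. Pfkfb3, the form that mostly makes it, was the main form in every library. Pfkfb3 stood at 126, 106 and 106 scaled RPKM in ERRKO_CL libraries, against 48.5, 66.3 and 51.6 in WT_CL libraries, and at 99.1, 56.4 and 86.6 in ERRKO_PBS libraries, against 48.7, 58.3 and 49.4 in WT_PBS libraries. Pfkfb3 changed by 1.02 ± 0.19 (adjusted p = 9.21e-04) under CL316,243 and by 0.59 ± 0.19 (adjusted p = 0.0288) under PBS. ERRKO_CL libraries stood above all WT libraries, while ERRKO_PBS replicate 2 stood within the WT_PBS range. Pfkfb4 stood at 2.89, 2.11 and 2.72 scaled RPKM in ERRKO_CL libraries, against 1.19, 1.66 and 1.61 in WT_CL libraries, and at 3.71, 1.77 and 3.01 in ERRKO_PBS libraries, against 1.40, 1.74 and 1.57 in WT_PBS libraries. Pfkfb4 changed by 0.63 ± 0.20 (adjusted p = 0.0257) under CL316,243 and by 0.65 ± 0.20 (adjusted p = 0.0278) under PBS. Pfkfb4 was higher in every ERRKO library than in any WT library. Under PBS both calls were lost without ERRKO_PBS replicate 1, ERRKO_PBS replicate 3, WT_PBS replicate 1 or WT_PBS replicate 3, with an adjusted p of up to 0.12 for Pfkfb3 and 0.12 for Pfkfb4. Under CL316,243 that of Pfkfb4 was lost without ERRKO_CL replicate 1, ERRKO_CL replicate 3 or WT_CL replicate 1, with an adjusted p of up to 0.101.

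Pfkfb1 and Pfkfb2, further forms of the same enzyme, ranged from 18.8 to 26.8 and from 2.26 to 3.83 scaled RPKM over the 12 libraries. Pfkfb1 passed in neither genotype comparison, at -0.16 ± 0.12 (adjusted p = 0.346) under CL316,243 and 0.17 ± 0.12 (adjusted p = 0.313) under PBS. Pfkfb2 was lower in ERRKO_CL than in WT_CL, at -0.35 ± 0.11 (adjusted p = 0.0215), and the call was lost without ERRKO_CL replicate 1, ERRKO_CL replicate 2 or WT_CL replicate 2, with an adjusted p of up to 0.0817. On the deposited scale these changes under CL316,243 were 0.54 for Pfkfb1, called higher, and 0.26 for Pfkfb2, not called. As other genes overlap 19.5% of its exon bases and use of strand is not known, Pfkfb2 is uncertain. The next largest overlaps were those of the locus annotated as Pgm1 (13.6%), of Gpi1 (11.5%) and of Pfkm (10.7%), where the same limit applies.

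Of 9 glycogen genes 7 were lower and 1 higher in ERRKO_CL than in WT_CL, and 5 were lower and 2 higher in ERRKO_PBS than in WT_PBS. Gys2 encodes the liver form of glycogen synthase. Gys2 stood at 6.91, 6.08 and 13.7 scaled RPKM in ERRKO_CL libraries, against 26.8, 28.2 and 26.3 in WT_CL libraries, and at 2.42, 2.26 and 1.53 in ERRKO_PBS libraries, against 7.52, 4.40 and 9.69 in WT_PBS libraries. Gys2 changed by -1.64 ± 0.29 (adjusted p = 7.85e-04) under CL316,243 and by -1.54 ± 0.29 (adjusted p = 0.00161) under PBS. The levels of ERRKO_CL and WT_PBS libraries overlapped. Gys1, the muscle form, made up most of glycogen synthase in every library, ranged over 36.5 to 46.0 in ERRKO_CL, 30.8 to 38.3 in ERRKO_PBS, 45.8 to 52.5 in WT_CL and 33.7 to 40.0 in WT_PBS, and did not pass between genotypes at -0.22 ± 0.11 (adjusted p = 0.138) and -0.05 ± 0.11 (adjusted p = 0.779). On the deposited scale it was called higher in ERRKO under both treatments, at 0.49 and 0.54.

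Gbe1 encodes the glycogen branching enzyme. Gbe1 stood at 25.9, 28.5 and 43.9 scaled RPKM in ERRKO_CL libraries, against 96.6, 137 and 118 in WT_CL libraries, and at 38.6, 36.8 and 23.1 in ERRKO_PBS libraries, against 71.0, 62.3 and 82.3 in WT_PBS libraries. Gbe1 changed by -1.85 ± 0.23 (adjusted p = 4.32e-05) under CL316,243 and by -1.15 ± 0.23 (adjusted p = 0.00209) under PBS. Groups of the 2 genotypes did not overlap. Ppp1r3c encodes a subunit that brings protein phosphatase 1 to glycogen and so favours glycogen synthesis. Ppp1r3c stood at 13.9, 6.33 and 10.1 scaled RPKM in ERRKO_CL libraries, against 51.3, 46.8 and 44.9 in WT_CL libraries, and at 5.02, 4.64 and 6.54 in ERRKO_PBS libraries, against 19.7, 18.9 and 20.4 in WT_PBS libraries. Ppp1r3c changed by -2.25 ± 0.21 (adjusted p = 4.42e-06) under CL316,243 and by -1.79 ± 0.21 (adjusted p = 4.32e-05) under PBS. Every ERRKO library stood below every WT library.

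Transcripts of glycogen phosphorylase, which releases glucose from glycogen, differed in make-up between genotypes. Pygl encodes the liver form. Pygl stood at 66.0, 62.1 and 83.2 scaled RPKM in ERRKO_CL libraries, against 132, 318 and 218 in WT_CL libraries, and at 62.3, 81.7 and 44.7 in ERRKO_PBS libraries, against 117, 94.7 and 158 in WT_PBS libraries. Pygl changed by -1.57 ± 0.30 (adjusted p = 0.00131) under CL316,243 and by -0.98 ± 0.30 (adjusted p = 0.026) under PBS. Under PBS its call was lost without ERRKO_PBS replicate 1, ERRKO_PBS replicate 3, WT_PBS replicate 1 or WT_PBS replicate 3, with an adjusted p of up to 0.101, and on the deposited scale at -0.39. Pygb encodes the brain form. Pygb stood at 76.5, 82.5 and 89.6 scaled RPKM in ERRKO_CL libraries, against 31.0, 37.6 and 34.6 in WT_CL libraries, and at 86.1, 69.0 and 94.1 in ERRKO_PBS libraries, against 58.0, 48.7 and 66.9 in WT_PBS libraries. Pygb changed by 1.26 ± 0.14 (adjusted p = 1.82e-05) under CL316,243 and by 0.52 ± 0.14 (adjusted p = 0.0128) under PBS. Every ERRKO library was above every WT library, and the call under PBS was lost without ERRKO_PBS replicate 3 or WT_PBS replicate 2, with an adjusted p of up to 0.0549. Pygb thus made up 53.7, 57.0 and 51.9% of Pygl and Pygb together in ERRKO_CL libraries, against 19.0, 10.6 and 13.7% in WT_CL libraries. Under PBS its share was 58.0, 45.8 and 67.8% in ERRKO_PBS libraries, against 33.1, 34.0 and 29.7% in WT_PBS libraries. Pygm, the muscle form, was left out of this share and stood high where muscle RNA was high. In ERRKO_PBS replicate 3 Pygm stood at 55.6, above Pygl. Within each ERRKO group Pygb also rose in the order of the muscle marker sums, which its levels did not follow in the WT groups. The part of muscle RNA in the changes and the share of Pygb was not tested.

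The remaining glycogen genes supply UDP-glucose. Ugp2, which makes it, was lower in ERRKO_CL at -0.99 ± 0.17 (adjusted p = 6.54e-04) and did not pass under PBS at -0.33 ± 0.17 (adjusted p = 0.167), and on the deposited scale the first was -0.28 and not called. Pgm1 and Pgm2 convert glucose 1-phosphate and glucose 6-phosphate, and the symbols have been exchanged between the 2 genes in annotation versions, so which locus each row stands for is not certain. The row named Pgm1 was lower in ERRKO, at -0.61 ± 0.10 (adjusted p = 2.91e-04) under CL316,243 and -0.78 ± 0.10 (adjusted p = 5.67e-05) under PBS, with a change of 0.02 under CL316,243 on the deposited scale. The more abundant row, named Pgm2, was lower in ERRKO_CL at -0.34 ± 0.12 (adjusted p = 0.0395) and higher in ERRKO_PBS at 0.37 ± 0.12 (adjusted p = 0.0326). Both calls were lost in some fits with 1 library left out, without ERRKO_PBS replicate 1, ERRKO_CL replicate 1, ERRKO_CL replicate 2, ERRKO_CL replicate 3, WT_PBS replicate 1, WT_CL replicate 1, WT_CL replicate 2 or WT_CL replicate 3 for ERRKO_CL, with an adjusted p of up to 0.116, and without ERRKO_PBS replicate 1, ERRKO_PBS replicate 2, ERRKO_PBS replicate 3, WT_PBS replicate 1 or WT_PBS replicate 2 for ERRKO_PBS, with an adjusted p of up to 0.12. On the deposited scale the change under CL316,243 was 0.38, in the other direction and called higher in ERRKO_CL.

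**Figure D4:**
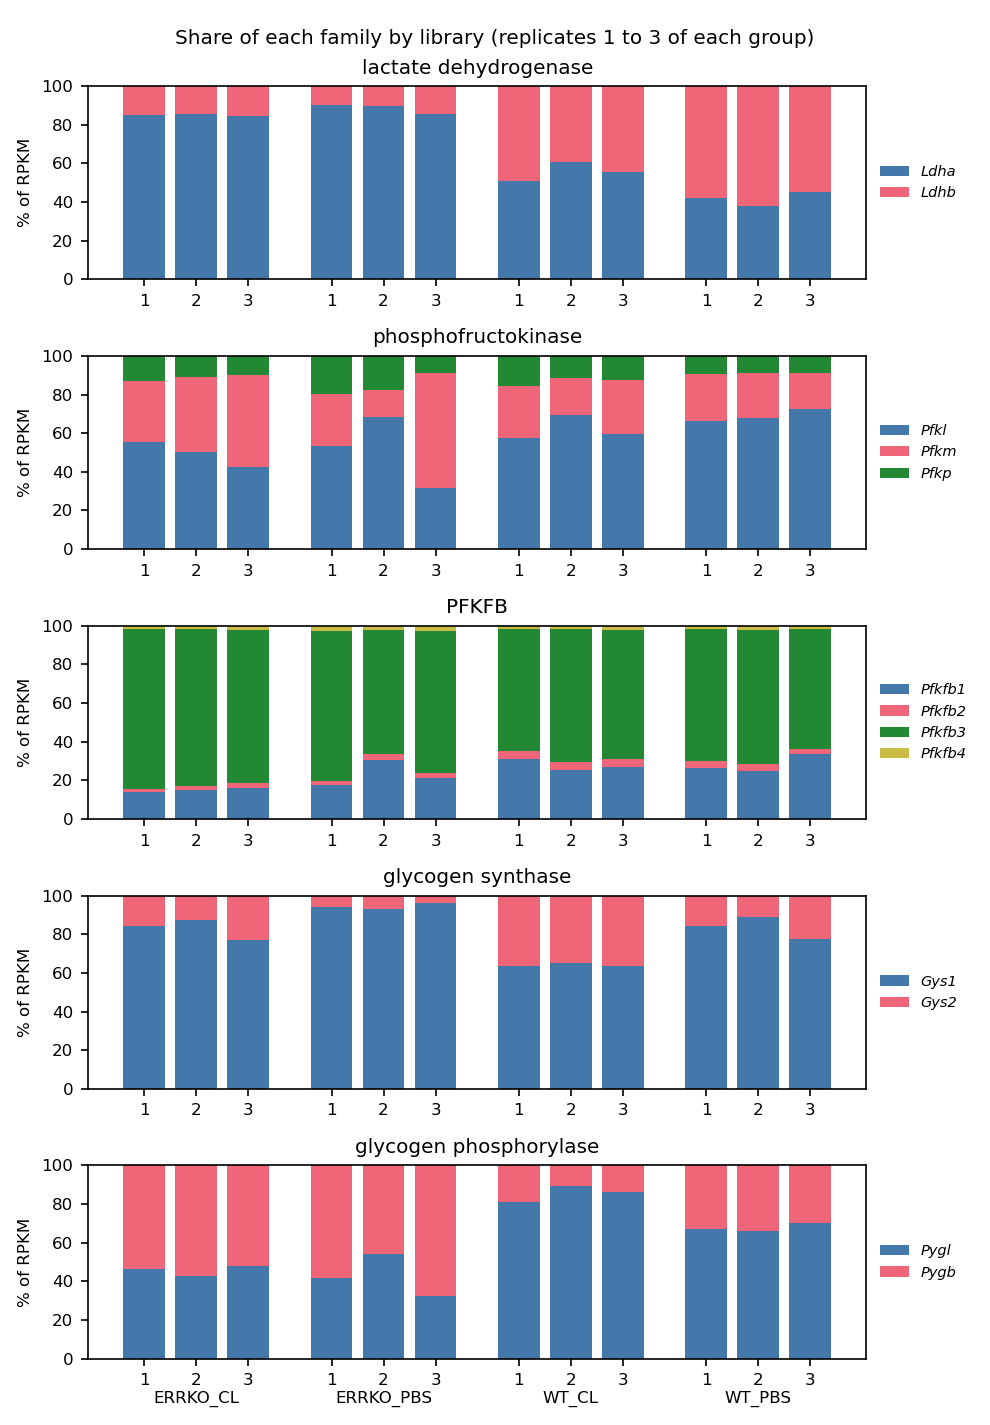
Share of each form in the summed RPKM of 5 enzyme families in each of the 12 libraries, in percent, with replicates 1 to 3 of ERRKO_CL, ERRKO_PBS, WT_CL and WT_PBS from left to right. Ldhb shrinks to between 9.8% and 15.3% of lactate dehydrogenase in ERRKO libraries, against 39.4% to 62.0% in WT libraries, and Pygb takes 45.8% to 67.8% of the 2 glycogen phosphorylases in ERRKO libraries, against 10.6% to 34.0% in WT libraries.

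In WT brown fat CL316,243 raised much of the pathway. Of the 30 genes 16 were higher and 1 lower in WT_CL than in WT_PBS, where 18% of all tested genes were called higher and 12.6% lower, and the median change was 0.49. As deposited, 9 were higher and 3 lower, against 7.2% and 38.1% of all genes. The largest rises were in glycogen genes and in the entry and exit of glycolysis: Gys2 rose by 1.90 ± 0.29 (adjusted p = 6.23e-04), Ppp1r3c by 1.25 ± 0.21 (adjusted p = 0.00106), Hk2 by 1.10 ± 0.15 (adjusted p = 2.61e-04) and Ldha by 1.07 ± 0.19 (adjusted p = 0.00151). Pygb fell, at -0.73 ± 0.14 (adjusted p = 0.00222), while Pygl did not pass at 0.79 ± 0.30 (adjusted p = 0.069), and the share of Gys2 in glycogen synthase was 36.5, 35.0 and 36.5% in WT_CL libraries, against 15.8, 11.0 and 22.3% in WT_PBS libraries. Further rises were 0.97 ± 0.25 (adjusted p = 0.0113) for Gapdh, 0.94 ± 0.12 (adjusted p = 1.77e-04) for Pgm2, 0.80 ± 0.22 (adjusted p = 0.0166) for Eno1, 0.77 ± 0.24 (adjusted p = 0.0305) for Aldoa, 0.76 ± 0.13 (adjusted p = 9.62e-04) for Pgk1 and 0.74 ± 0.15 (adjusted p = 0.00278) for Hk1. Pgam1, Pfkp, Gbe1, Ugp2, Gys1 and Pfkfb2 also rose, by 0.36 to 0.70. The transporters Slc2a4, Slc2a1 and Slc16a1 did not pass, and neither did Ldhb, Gpi1, Pfkl and Tpi1, which were among the genes lower in ERRKO.

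Without WT_CL replicate 2 the 17 calls of the WT response came to 11, and without WT_PBS replicate 2 to 12. Of the 17 calls 7 were lost without some library: Eno1, Gapdh, Gys1, Pfkfb2, Aldoa, Gbe1 and Ugp2. Eno1 was lost without WT_CL replicate 2 (adjusted p = 0.0584), Gapdh without WT_PBS replicate 2 (0.0501), and Gys1 without either of these (up to 0.0761). Pfkfb2 was lost without WT_CL replicate 2, WT_CL replicate 3 or WT_PBS replicate 3 (up to 0.0923). The calls of Aldoa, Gbe1 and Ugp2 were lost without WT_CL replicate 2, WT_CL replicate 3, WT_PBS replicate 1 or WT_PBS replicate 2, with an adjusted p of up to 0.122 for Aldoa, 0.127 for Gbe1 and 0.101 for Ugp2. Beside these changes, 7 of 7 tested erythroid markers and 7 of 8 macrophage markers were called lower in WT_CL than in WT_PBS. The erythroid markers Hbb-b2 and Hbb-bt had identical values in every library, so a single measurement entered the count and the sum under both names. The summed macrophage markers stood at 99.6 to 131 in WT_CL, against 177 to 375 in WT_PBS, and the erythroid ones at 223 to 699 in WT_CL, against 938 to 1039 in WT_PBS. Their part in the result was not tested.

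In ERRKO brown fat CL316,243 gave few calls, among the 30 genes as among all tested genes. In ERRKO_CL against ERRKO_PBS, 3 of the 30 were higher and 2 lower, and their median change was 0.05. Of all tested genes 6.68% were called higher and 3.62% lower. As deposited, 1 was higher and 4 lower, against 3.23% and 13.7% of all genes. Gys2 rose, at 1.80 ± 0.29 (adjusted p = 0.00362), as did Ppp1r3c at 0.79 ± 0.21 (adjusted p = 0.0347) and Pgam1 at 0.40 ± 0.11 (adjusted p = 0.0379), while Eno1 fell, at -0.93 ± 0.22 (adjusted p = 0.0208), and Pfkp at -0.43 ± 0.11 (adjusted p = 0.0344). With Eno1b summed in, the change of Eno1 was -0.35 and not called (adjusted p = 0.34). The share of Gys2 in glycogen synthase was 15.9, 12.7 and 23.0% in ERRKO_CL libraries, against 6.17, 6.84 and 3.84% in ERRKO_PBS libraries. Of the 5 calls, that of Gys2 held whichever library was left out, and the count came to 1 without ERRKO_CL replicate 1 or ERRKO_PBS replicate 1, 2 without ERRKO_CL replicate 2 or ERRKO_CL replicate 3, and 3 without WT_CL replicate 3. The other adjusted p-values reached 0.11 for Ppp1r3c, 0.139 for Pgam1, 0.0876 for Eno1 and 0.105 for Pfkp. On the deposited scale Ppp1r3c (0.62) and Pgam1 (0.21) were not called.

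**Figure D5:**
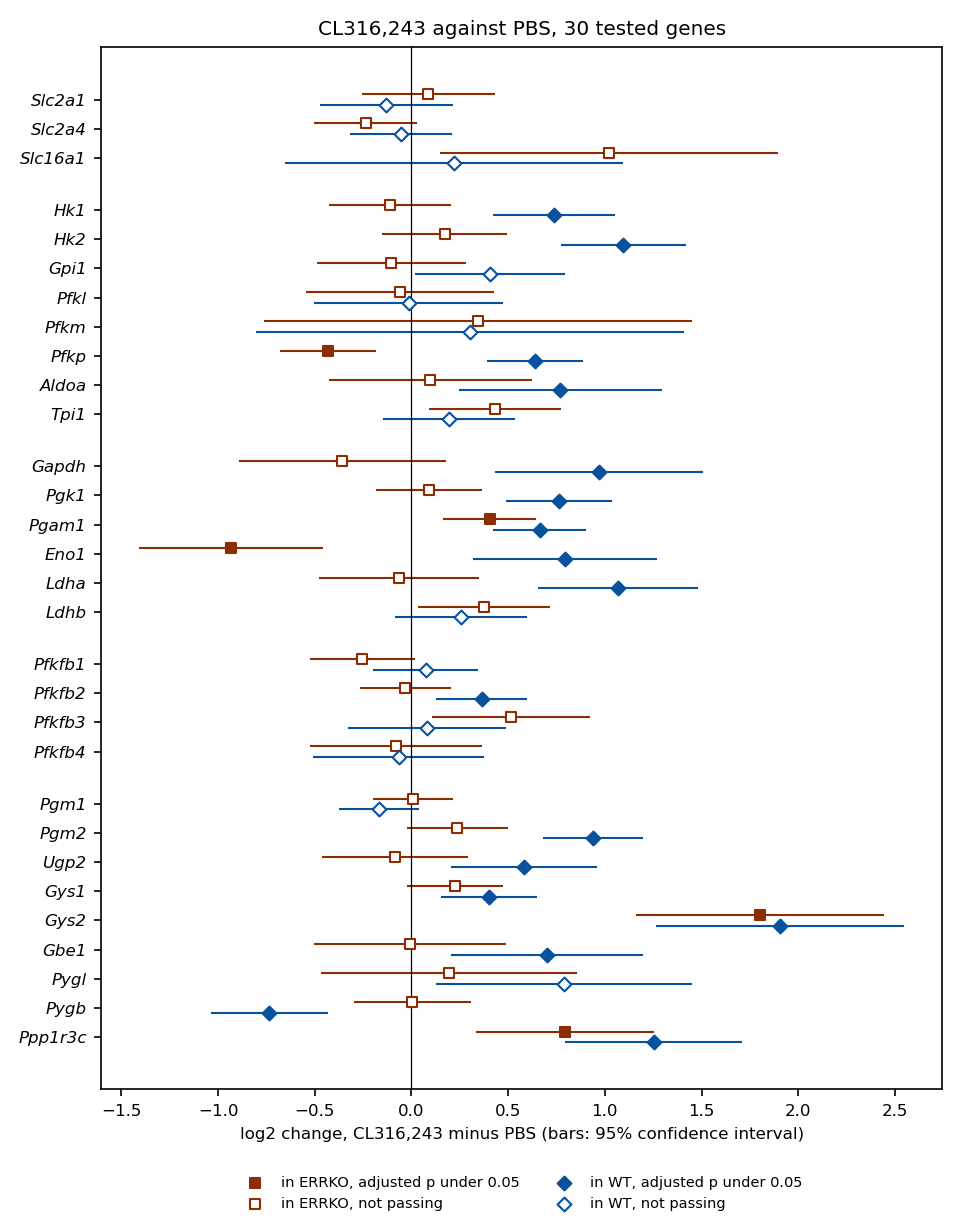
Log2 change of each of the 30 tested genes, CL316,243 minus PBS, in ERRKO (squares) and WT (diamonds), with bars for the 95% confidence interval and filled symbols where the adjusted p is below 0.05. Gys2 lies far right in both genotypes, at 1.80 in ERRKO and 1.90 in WT, while Hk2 and Ldha lie near 0 in ERRKO, at 0.17 and -0.06, and above 1 in WT.

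The difference between these responses was tested directly, as the change with CL316,243 in ERRKO minus that in WT. It passed for 6 of the 30 genes, each with a negative difference, where 2.02% of all tested genes were called lower and 1.89% higher. They were Eno1 at -1.73 ± 0.31 (adjusted p = 0.0111), Ldha at -1.13 ± 0.27 (adjusted p = 0.0403), Pfkp at -1.07 ± 0.16 (adjusted p = 0.00445), Hk2 at -0.93 ± 0.21 (adjusted p = 0.0333), Hk1 at -0.85 ± 0.21 (adjusted p = 0.0427) and Pgm2 at -0.70 ± 0.17 (adjusted p = 0.0415). As deposited, 4 were lower and 1 higher, against 1.26% and 3.88% of all tested genes: Hk1 (-0.72) and Hk2 (-0.80) were not called, and Pygb was, with a positive difference of 0.86. With Eno1b summed in, the difference for Eno1 was -1.11 and not called (adjusted p = 0.0613). Eno1 alone and Pfkp were called whichever library was left out, and the count of 6 came to 2 without ERRKO_CL replicate 1, ERRKO_CL replicate 2, ERRKO_PBS replicate 1, ERRKO_PBS replicate 3, WT_CL replicate 2 or WT_CL replicate 3, and to 3 without WT_PBS replicate 2. The other adjusted p-values then reached 0.107 for Hk1, 0.082 for Hk2, 0.0962 for Ldha and 0.0962 for Pgm2. For Gys2 the responses differed by -0.10 ± 0.42 (adjusted p = 0.937), with a 95% confidence interval of -1.01 to 0.80, and for Ldhb by 0.12 ± 0.22 (adjusted p = 0.839), with an interval of -0.36 to 0.60.

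Promoter sequence was available for 28 of the 32 genes in 45 windows of 300 bases, 250 before to 50 after an annotated start (RefSeq, GRCm38.p6). Pgm1 and Pgm2 were left out because their loci are not certain, and Gys2 and Slc2a4 have no entry. The extended element that ERR proteins are known to bind, TNAAGGTCA, was searched on both strands. It was found in 1 of the 28 genes (3.57%), Tpi1, and in 387 of 27025 genes (1.43%) of the whole table. In Tpi1 it lies on the strand opposite to the gene, 9 to 17 bases after the start, shown in capitals in a stretch of 29 bases at chr6:124814132-124814160, minus strand, because it is the match of this search.
Tpi1: gcgtttgtacTGACCTTCAgagacttgag

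The core ACGTG, read by hypoxia-inducible factors and, within CACGTG, by ChREBP and other helix-loop-helix factors, was searched in the same windows on both strands, and is not part of the ERR element. It was found in 18 of the 28 genes (64.3%) and 22 of the 45 windows (48.9%), against 21.8% of genes and 19.6% of windows in the whole table. The whole table has 32851 windows for 27025 genes. A gene with more windows has more bases in which a match can fall, and overlapping windows, as in Aldoa, can hold the same site. The core was present in 8 of 15 genes called lower in ERRKO_PBS than in WT_PBS, in 2 of 3 called higher and in 6 of 8 that did not pass. The 250 bases before the start of 3 genes are shown in lower case with ACGTG or its complement in capitals: Ldhb, the largest fall, Pfkfb4, the largest rise under PBS with an entry, and Pgk1, chosen after the search for its pair of cores. The Ldhb window is chr6:142507958-142508207, minus strand, that of Pfkfb4 chr9:108991652-108991901, plus strand, and that of Pgk1 chrX:106186850-106187099, plus strand. A match describes these letters only, and the absence of one says nothing of a factor.
Ldhb: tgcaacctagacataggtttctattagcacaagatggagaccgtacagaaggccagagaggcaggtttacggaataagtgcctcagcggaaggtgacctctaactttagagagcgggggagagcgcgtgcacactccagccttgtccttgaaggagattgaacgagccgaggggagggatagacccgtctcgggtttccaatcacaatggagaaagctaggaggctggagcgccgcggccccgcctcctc
Pfkfb4: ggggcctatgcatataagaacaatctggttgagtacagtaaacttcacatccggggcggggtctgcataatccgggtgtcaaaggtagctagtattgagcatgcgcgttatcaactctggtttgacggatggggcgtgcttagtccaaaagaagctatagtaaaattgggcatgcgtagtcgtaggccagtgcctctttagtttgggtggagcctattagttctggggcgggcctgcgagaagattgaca
Pgk1: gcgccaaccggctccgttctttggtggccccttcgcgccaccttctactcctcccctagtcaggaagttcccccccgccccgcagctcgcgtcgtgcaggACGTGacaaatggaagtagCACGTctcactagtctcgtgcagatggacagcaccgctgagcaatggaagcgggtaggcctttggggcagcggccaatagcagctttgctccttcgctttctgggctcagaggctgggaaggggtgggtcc

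Ldhb and Pfkfb4, which moved in opposite directions, hold neither motif in the bases shown. In Pgk1 the cores start 150 and 131 bases before the gene.

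Other genes of the same metabolism were read from lists, to be set against the shares of all tested genes given above. The step from pyruvate into the mitochondrion, through the mitochondrial pyruvate carrier and pyruvate dehydrogenase, was lower as a whole: 7 of 7 genes were lower in ERRKO_CL than in WT_CL and in ERRKO_PBS than in WT_PBS, and 7 of 7 were higher in WT_CL than in WT_PBS. In ERRKO_CL against ERRKO_PBS 4 of the 7 were higher, and as deposited 1, Dlat, against 6.68% and 3.23% of all genes called higher. Dlat, a subunit of pyruvate dehydrogenase, changed by -2.74 ± 0.12 (adjusted p = 1.35e-08) in ERRKO_CL and -2.44 ± 0.12 (adjusted p = 5.32e-08) in ERRKO_PBS. Pdhb, another subunit, changed by -3.02 ± 0.22 (adjusted p = 4.69e-07) in ERRKO_CL and -1.77 ± 0.22 (adjusted p = 5.81e-05) in ERRKO_PBS, Dld by -2.39 ± 0.14 (adjusted p = 8.29e-08) and -1.91 ± 0.14 (adjusted p = 8.05e-07), and Pdha1 by -2.38 ± 0.17 (adjusted p = 5.22e-07) and -1.79 ± 0.17 (adjusted p = 8.36e-06). All 7 were also called lower in ERRKO under both treatments on the deposited scale.

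Of 8 further glycolytic enzymes tested, 3 were lower and 1 higher in ERRKO_CL than in WT_CL, and 3 lower in ERRKO_PBS than in WT_PBS. As deposited, 1 was lower and 5 higher under CL316,243, and 2 lower and 4 higher under PBS. Pkm, which encodes the pyruvate kinase of most tissues, was lower at -2.31 ± 0.18 (adjusted p = 9.50e-07) and -1.90 ± 0.18 (adjusted p = 7.00e-06). Tigar, which breaks down fructose 2,6-bisphosphate, was lower at -0.94 ± 0.15 (adjusted p = 3.19e-04) and -0.80 ± 0.15 (adjusted p = 0.00139), and on the deposited scale, at -0.31 and -0.29, not called. Ldhd, a mitochondrial dehydrogenase of D-lactate, was lower in ERRKO_PBS at -1.61 ± 0.15 (adjusted p = 7.57e-06) and did not pass in ERRKO_CL at 0.27 ± 0.15 (adjusted p = 0.19), where the deposited scale gave 0.97 and a call, and its response to CL316,243 differed between genotypes by 1.87 ± 0.22 (adjusted p = 8.95e-04). Eno3, the muscle enolase, was the one higher in ERRKO_CL, at 1.93 ± 0.69 (adjusted p = 0.042), beside the muscle marker sums given above, and is named after its value was seen.

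Among 22 other glycogen genes tested, 5 were lower and 2 higher in ERRKO_CL than in WT_CL, and 3 lower and 3 higher in ERRKO_PBS than in WT_PBS. Those of all genes were 21.6% and 19.8%, and 18.4% and 15.8%. As deposited they were 2 lower and 16 higher under CL316,243, and 1 lower and 15 higher under PBS. Ppp1r3b, another glycogen-targeting subunit of protein phosphatase 1, was lower at -1.94 ± 0.24 (adjusted p = 4.29e-05) and -0.87 ± 0.24 (adjusted p = 0.0139), the second of them not called on the deposited scale at -0.29. Gsk3a, a kinase that inhibits glycogen synthase, was lower in ERRKO_CL at -0.50 ± 0.09 (adjusted p = 8.26e-04) and did not pass under PBS at -0.22 ± 0.09 (adjusted p = 0.0774), and on the deposited scale the changes were 0.21 and 0.36, in the other direction and called under PBS. Phkg2, the liver catalytic subunit of phosphorylase kinase, was lower in ERRKO_CL at -0.38 ± 0.08 (adjusted p = 0.00172), did not pass under PBS at -0.12 ± 0.08 (adjusted p = 0.252), and was 0.29 and 0.44 on the deposited scale, called higher under both treatments. Phkg1, the muscle catalytic subunit of phosphorylase kinase, was higher at 1.14 ± 0.31 (adjusted p = 0.0112) and 1.48 ± 0.31 (adjusted p = 0.00287). Its level followed the muscle marker sums only in part. It was 7.77 in ERRKO_PBS replicate 3, where the sum was highest. It was 4.13 in ERRKO_PBS replicate 2 at a sum of 116, and 2.98 in ERRKO_CL replicate 3 at a sum of 1868. The part of muscle RNA in Phkg1 was not tested. Ppp1r3e, a further targeting subunit, was higher at 0.73 ± 0.16 (adjusted p = 0.00264) and 0.67 ± 0.16 (adjusted p = 0.00562). Phkg1 and Ppp1r3e are named after their values were seen.

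Of 8 further transport genes tested, 3 were lower and 2 higher in ERRKO_CL than in WT_CL, and 1 lower and 2 higher in ERRKO_PBS than in WT_PBS. The deposited values gave 2 lower and 3 higher under CL316,243 and 4 higher under PBS. Slc2a3, which encodes GLUT3, was higher at 1.22 ± 0.23 (adjusted p = 0.00121) and 1.53 ± 0.23 (adjusted p = 3.24e-04), with 1.48, 1.86 and 3.40 scaled RPKM in ERRKO_CL and 4.39, 3.37 and 2.49 in ERRKO_PBS, against 0.514, 0.756 and 0.618 in WT_CL and 0.813, 0.812 and 0.862 in WT_PBS. Slc16a7, which encodes the lactate and pyruvate carrier MCT2, was higher at 1.01 ± 0.15 (adjusted p = 2.07e-04) and 0.69 ± 0.15 (adjusted p = 0.00375). Bsg, the partner protein that brings MCT1 to the membrane, was lower at -1.19 ± 0.15 (adjusted p = 4.11e-05) and -0.73 ± 0.15 (adjusted p = 0.00208), the second not called on the deposited scale at -0.14. Slc2a5, which encodes the fructose carrier GLUT5, was lower in ERRKO_CL at -1.87 ± 0.45 (adjusted p = 0.00543) and did not pass under PBS at -0.26 ± 0.45 (adjusted p = 0.685).

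In the branch to glycerol and back to glucose, 3 of 8 genes tested were lower and 3 higher in ERRKO_CL than in WT_CL, and 4 lower and 1 higher in ERRKO_PBS than in WT_PBS. The deposited values gave 2 lower and 4 higher under CL316,243, and 2 lower and 3 higher under PBS. Gpd1, which makes glycerol 3-phosphate from a glycolytic intermediate, was lower at -2.40 ± 0.16 (adjusted p = 2.18e-07) and -1.40 ± 0.16 (adjusted p = 3.06e-05), and Gpd2, its mitochondrial partner, at -1.90 ± 0.16 (adjusted p = 1.78e-06) and -1.37 ± 0.16 (adjusted p = 4.21e-05). Pck2, mitochondrial phosphoenolpyruvate carboxykinase, was higher in ERRKO_CL at 0.53 ± 0.13 (adjusted p = 0.00506) and lower in ERRKO_PBS at -0.71 ± 0.13 (adjusted p = 9.55e-04), with a difference between responses of 1.25 ± 0.18 (adjusted p = 0.00338), and the fall was not called on the deposited scale at -0.15. G6pc3, a glucose 6-phosphatase of many tissues, did not pass in ERRKO_CL at -0.10 ± 0.10 (adjusted p = 0.436) and was lower in ERRKO_PBS at -0.53 ± 0.10 (adjusted p = 0.00102), with 0.60 and 0.05 on the deposited scale, the first of them called higher.

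In the pentose phosphate pathway, 6 of 8 genes were lower and 1 higher in ERRKO_CL than in WT_CL, and 2 lower and 1 higher in ERRKO_PBS than in WT_PBS. As deposited the counts were 2 lower and 1 higher under CL316,243, and 1 lower and 4 higher under PBS. Pgd, which makes NADPH, was lower in ERRKO_CL at -1.66 ± 0.22 (adjusted p = 8.72e-05) and did not pass under PBS at -0.23 ± 0.22 (adjusted p = 0.459), with a difference between responses of -1.43 ± 0.31 (adjusted p = 0.0303). Tkt, transketolase, was lower in ERRKO_CL at -1.79 ± 0.27 (adjusted p = 1.99e-04) and did not pass under PBS at -0.48 ± 0.27 (adjusted p = 0.183). As deposited, the changes under PBS were 0.36 for Pgd and 0.11 for Tkt, in the other direction. Pgls, the lactonase of the pathway, was lower at -0.83 ± 0.16 (adjusted p = 0.0013) and -1.10 ± 0.16 (adjusted p = 2.28e-04), the first not called on the deposited scale at -0.12. H6pd, which runs the first steps of the pathway in the endoplasmic reticulum, went the other way, higher at 0.73 ± 0.23 (adjusted p = 0.0262) and 0.96 ± 0.23 (adjusted p = 0.00751), and is named after its values were seen.

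Of 16 insulin-signal and glucose-sensing genes, 4 were lower and 3 higher in ERRKO_CL than in WT_CL, and 2 lower and 3 higher in ERRKO_PBS than in WT_PBS. Irs1, which relays the insulin signal, was higher at 1.11 ± 0.20 (adjusted p = 8.73e-04) and 1.29 ± 0.20 (adjusted p = 3.95e-04). Akt1, a kinase of the same signal, was lower at -0.86 ± 0.10 (adjusted p = 2.01e-05) and -0.36 ± 0.10 (adjusted p = 0.0119), and Epas1, which encodes a hypoxia-inducible factor, at -0.66 ± 0.12 (adjusted p = 6.96e-04) and -0.57 ± 0.12 (adjusted p = 0.00249). These falls depend on the scale, since as deposited Akt1 was at -0.16 and 0.22 and Epas1 at 0.05 and 0.02, with no call. Mlx, the partner of the carbohydrate-sensing factor ChREBP, did not pass between genotypes at -0.39 ± 0.15 (adjusted p = 0.0503) and -0.02 ± 0.15 (adjusted p = 0.934), was called higher in ERRKO_PBS on the deposited scale at 0.54, and was higher in WT_CL than in WT_PBS at 0.93 ± 0.15 (adjusted p = 7.66e-04). As deposited, 10 of the 16 were called higher under CL316,243 and 7 under PBS, shares below the 70.5% and 66.3% of all tested genes.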

How the data were processed

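The genes, lists and tests were chosen with earlier results of these data known. Total RNA libraries were made from brown fat, per the labels' protocols. RPKM values of 24452 genes were deposited by the authors. A second deposited table gives 12380 genes as a linear signal, in which values were whole multiples of the worth of 1 read (100% within 0.01), so that reads could be recovered. It held 9 stray cells, not used here. The submitters' processing notes list STAR 2.3.0, cutadapt, bcl2fastq 2.16.0.10 and edgeR, and the builds mm10 and mm9 with no role. How reads were assigned to genes, with which gene models and whether by strand, is not stated in the labels.

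Groups follow the labels, and no 2 libraries were identical. RPKM was scaled by median of ratios. Genes with a mean deposited RPKM of at least 0.5 (12249) entered one model of 4 group means over 12 libraries, as log2 of scaled RPKM plus 0.5 (R 4.3.3; limma 3.58.1 with a mean-variance trend), which understates changes of low genes. Benjamini-Hochberg adjustment ran separately in the 5 comparisons, with a limit of 0.05. The fit was tested on simulated data. Alternatives were the deposited scale, quantile normalization, pseudocounts of 0.1 and 1, no filter or a mean of at least 2, only the groups compared, the second table, edgeR 4.0.16 quasi-likelihood on recovered reads, a replicate block, leaving out each library, leaving out replicate 3 of both ERRKO groups and, added after seeing the data, summing Eno1 and Eno1b.

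Every gene of the 32 is accounted for. Values in each library are given for genes with a called log2 change of at least 1 in some comparison and for those near 0, and also for Pfkm, Pfkfb4 and Slc2a4, chosen after their values were seen. Of each further list up to 4 genes with the smallest p are named, beside those said to be named after seeing their values. One gene that this rule names is not reported here. Coordinates and sequences of promoter windows are from RefSeq on GRCm38.p6, and the overlaps of exon bases with other genes are from GENCODE gene models.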

Additional observations from a re-analysis of the deposited data

Results flagged for a closer look

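For 6 genes the response to CL316,243 differed between genotypes by a test of the difference itself, the change in ERRKO minus that in WT (limma, log2 ± SE). The differences were -1.73 ± 0.31 for Eno1, -1.13 ± 0.27 for Ldha, -1.07 ± 0.16 for Pfkp, -0.93 ± 0.21 for Hk2, -0.85 ± 0.21 for Hk1 and -0.70 ± 0.17 for Pgm2. In WT the 6 were higher in WT_CL than in WT_PBS, while in ERRKO Eno1 and Pfkp were lower in ERRKO_CL than in ERRKO_PBS and the other 4 did not pass. With its near-identical copy Eno1b summed in, Eno1 gave -1.11 for the difference and -0.35 in ERRKO, neither called. As deposited, the differences of Hk1 and Hk2 were not called. Leaving out a library lost the calls of Eno1 and Pfkp in ERRKO and of Ldha, Hk2, Hk1 and Pgm2 for the difference.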

How the results depend on the processing

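Of 76 called changes of the 30 genes, 41 held in every alternative run. On the deposited scale 20 kept their direction without a call and 4 changed sign, and 1 was lost in edgeR's count test, Pgam1 in ERRKO_CL against ERRKO_PBS. As deposited, the typical gene is shifted upward in ERRKO, and changes of the opposite sign, among those called on at least 1 of the scales, were 0.54 for Pfkfb1, 0.26 for Pfkfb2, 0.018 for Pgm1, 0.38 for Pgm2 and 0.49 for Gys1 in ERRKO_CL against WT_CL, and 0.46 for Slc2a1, 0.092 for Hk1, 0.58 for Hk2 and 0.54 for Gys1 in ERRKO_PBS against WT_PBS. The change of Pgm2 was called on both scales, in opposite directions. Summing Eno1 and Eno1b, added after seeing the data, lost the calls of Eno1 in ERRKO_CL against ERRKO_PBS and in the difference between responses. Quantile normalization put Pgm2 at 0.033 in ERRKO_CL against WT_CL, and the cause was not tested.

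Counts of called genes with 1 library left out ranged from 23 to 27 for ERRKO_CL against WT_CL (26 with all), 17 to 22 for ERRKO_PBS against WT_PBS (22), 1 to 6 for ERRKO_CL against ERRKO_PBS (5), 11 to 19 for WT_CL against WT_PBS (17) and 2 to 9 for the difference between responses (6). For ERRKO_CL against ERRKO_PBS the count was 3 with no filter, 3 with only the groups compared and 2 without replicate 3 of both ERRKO groups, and for the difference between responses it was 2 with no filter and has no value with only the groups compared. Fewer libraries, or more genes in the adjustment, enter these fits.

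The labels number replicates 1 to 3 in each group. Of 18 pairs of libraries with the same number, 7 had deviations from their group means that correlated above 0.1 (range -0.389 to 0.454). Replicate 3 correlated at 0.294 to 0.454 among ERRKO_PBS, ERRKO_CL and WT_CL, and at -0.219 to -0.07 between these and WT_PBS. Libraries with different numbers were not compared, so these values cannot decide whether the numbers are pairs. The main fit did not take them as pairs. With the replicate block the counts were 26, 22, 3, 16 and 4 in the order given above, and 6 calls were lost. Low read numbers limit Slc16a3 and Aldoc.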
